A study of Mus musculus with 2 samples.

Results

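Wnt ligands, their receptors and the regulators that act on them were followed in the retina of 1 wild-type mouse embryo and 1 Sox11-/- littermate. Both embryos had a C57BL/6 background and were taken at embryonic day 18, and total RNA of 1 retina each was hybridised to 1 Affymetrix mouse array. Sox11 encodes a transcription factor of differentiating neurons, and the design asked what changes in the retina without it. Neither the deleted part of Sox11 nor the cells that lost it are named in the labels. Members were chosen by gene symbol: the Wnt, Frizzled, Sfrp, R-spondin and Tcf7 families, Dkk1, Dkk2 and Dkk4, Lgr4, Lgr5, Lrp5 and Lrp6, and 11 single genes that transduce or limit the signal (Axin1, Axin2, Ctnnb1, Lef1, Nkd1, Nkd2, Notum, Rnf43, Sp5, Wif1 and Znrf3). They made up 57 of the 18193 genes named on the array, measured by 113 probe sets. Each gene took its probe set with the highest mean of both arrays.

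Wnt ligands are secreted, lipid-modified proteins. They bind Frizzled receptors together with the co-receptor Lrp5 or Lrp6, which stops the degradation of beta-catenin, so that it enters the nucleus and acts with Tcf and Lef factors. Secreted inhibitors bind the ligand or the co-receptor, and several target genes act back on the pathway as brakes. In the developing eye the pathway is known for setting up the ciliary margin and the pigment epithelium, for progenitor maintenance and for growth of the retinal vessels.

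Since each genotype has 1 array, the spread between animals is unknown. No error or test can be given, the number of arrays limits the precision, and each difference is one between 2 arrays. A difference is given as the log2 ratio of (intensity + 5), knockout minus wild type. The added 5 damps the ratios of dim probe sets. A gene was counted if at least 1 array read 18.6 or more, the median of all values of both arrays, which stands in for a detection limit. Of the 57 members, 32 did so. The other 25 had intensities from 0.4 to 17.3, and their ratios are not read as differences.

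The deposited arrays were scaled alike, and their median intensities were 17.6 (wild type) and 19.7 (knockout). Of the 6 Sox11 probe sets, 5 read lower on the knockout array, and log2 ratios ran from -3.64 to 1.08. The embryos differed in sex-linked transcripts: Xist read 12.3 on the wild-type and 922.7 on the knockout array, and the Y-linked Eif2s3y read 214.0 and 4.7. A difference of sex and one of genotype thus cannot be told apart in any ratio between these arrays. All 10 measured neural retina markers passed the filter on both arrays. Markers of other tissues differed too. Summed intensities, wild type then knockout, were 112.3 and 702.0 over 11 periocular mesenchyme markers and 308.9 and 667.1 over 8 macrophage markers. They were 369.1 and 523.4 over 10 lens markers, 276.9 and 398.0 over 7 pigment epithelium markers, 1214.8 and 1681.8 over 7 ciliary margin markers, 857.9 and 675.5 over 8 endothelial markers and 146.5 and 137.8 over 7 surface ectoderm markers. The endothelial sum turned on Kdr, a vessel receptor also known from retinal progenitors, at 673.2 and 456.1. Without it the other 7 summed to 184.7 and 219.4. Gja1 made up most of the ciliary margin sum, at 842.5 and 1223.2. Among all genes past the filter, 47.7% had a ratio above 0. Of the markers that passed it, 9 of 9 mesenchyme, 7 of 7 macrophage, 5 of 7 lens, 4 of 5 pigment epithelium, 5 of 7 ciliary margin, 2 of 3 endothelial and 1 of 3 surface ectoderm markers had a ratio above 0. Of these, 7 mesenchyme, 3 lens, 1 macrophage, 1 pigment epithelium and 1 endothelial marker passed only through the knockout array and so had to read higher there, and 1 lens marker passed only through the wild type. In the wild type, 9 of the 11 mesenchyme markers were below the filter. No marker of these lists was at 0 on either array, and the mesenchymal factors Foxc2 and Twist1 were below the filter on both. In whole-retina RNA, more cells of a type and more RNA per cell cannot be told apart. Their part in the ratios of Wnt genes was not tested.

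All 5 secreted Wnt inhibitors past the filter read higher on the knockout array as deposited (4 of 5 after quantile normalization), against 2 of 5 genes that transduce the signal (1 of 5 after quantile normalization). That contrast between roles was not tested, and with the median over probe sets all 5 transducers were above 0. Of the 32 counted members, 23 had a ratio above 0 and 9 below. Lgr5, Wif1 and Fzd9 passed only through the knockout array, so that they had to read higher there. Among all 11553 genes past the filter, 47.7% were above 0. Of the 29 members at or above the filter on both arrays, 20 had a ratio above 0 (69.0%), against 47.1% of all such genes. The median log2 ratio was 0.13 over the members and -0.01 over all genes. At least 1.5-fold higher on the log2(intensity + 5) scale were 4 members, Lgr5, Sfrp2, Wif1 and Fzd6, against 3.81% of all genes. Wif1's bound against the filter is 1.47-fold, short of that mark. The share varied with level: 14 of the 32 members lay in the dimmest of 4 equal groups of genes by mean level. In that group, which holds Lgr5 and Wif1, 10.7% of genes were 1.5-fold higher and the median ratio was 0.06. In the brighter groups, with 9, 4 and 5 members, the shares were 2.56%, 1.52% and 0.485%. With values below the filter set to it, a setting chosen after seeing the data, 3 members (Lgr5, Sfrp2 and Fzd6) were 1.5-fold higher, against 2.79% of all genes. At least 2-fold higher was 1 member, Lgr5, against 0.961% of all genes (0.502% with values set to the filter). No member was 1.5-fold or 2-fold lower, against 2.17% and 0.407% of all genes. These shares depended on scaling and on the filter. After quantile normalization, 17 members were above 0, 14 below and 1 at 0. That made 53.1% above in place of 71.9%, against 43.0% of all genes under the same scaling. After loess it was 65.6% of members, against 44.6% of all genes. With the filter at the pooled 75th percentile, 6 of the 13 members left were above 0 (46.2%), against 43.0% of all genes. Over all genes, the 1.5-fold split was 440 higher and 251 lower as deposited, 313 and 393 after quantile normalization, and 339 and 356 after loess. The 2-fold split was 111 and 47 as deposited, and 90 and 66 after quantile normalization.

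**Figure D1:**
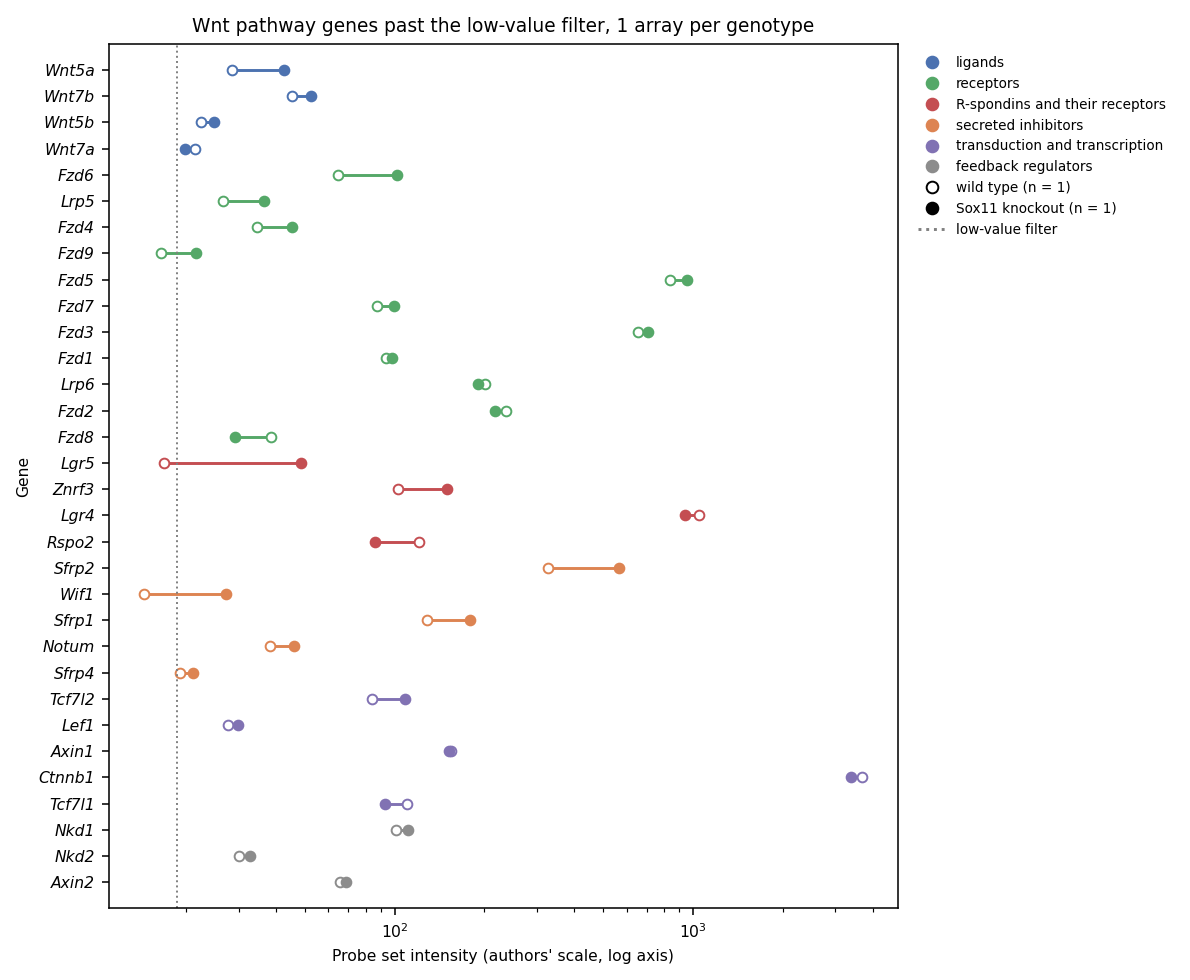
Intensity of the 32 Wnt pathway genes past the filter on a log axis, with open circles for the wild-type array, filled circles for the Sox11 knockout array (1 array each), colours for the role and a dotted line at the filter of 18.6. Lgr5 spans the widest interval, from 16.9 to 48.7, and all 5 secreted inhibitors have the filled circle on the right, as deposited (after quantile normalization Sfrp4 turns).

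The promoters of 3 members are shown because 2 of them belong to secreted inhibitors that read higher on the knockout array, Sfrp2 and Wif1, and the other, Sp5, holds the letters that Tcf and Lef factors are known to bind. Each run is the 250 bases before the RefSeq gene start, 5′ to 3′ on the gene's strand, in build GRCm38.p6. Capitals mark 3 motifs, each searched on both strands. CTTTGAT is a site of Tcf and Lef factors. Another such site is CTTTGTT, which overlaps with a Sox site, since its other strand reads AACAAAG. A further Sox site is AACAATG. Sfrp2 lies at chr3:83766071-83766320 (+), Wif1 at chr10:121033754-121034003 (+) and Sp5 at chr2:70474673-70474922 (+).
Sfrp2: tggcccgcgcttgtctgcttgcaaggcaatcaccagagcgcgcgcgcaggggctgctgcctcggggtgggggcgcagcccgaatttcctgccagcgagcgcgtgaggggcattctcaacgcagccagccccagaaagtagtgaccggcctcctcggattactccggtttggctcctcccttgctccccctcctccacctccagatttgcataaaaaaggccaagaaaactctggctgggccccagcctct
Wif1: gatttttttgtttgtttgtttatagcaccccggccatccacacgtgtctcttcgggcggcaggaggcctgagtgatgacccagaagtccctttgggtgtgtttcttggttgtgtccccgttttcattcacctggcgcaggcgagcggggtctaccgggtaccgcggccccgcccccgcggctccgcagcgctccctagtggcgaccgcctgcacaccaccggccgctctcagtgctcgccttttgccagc
Sp5: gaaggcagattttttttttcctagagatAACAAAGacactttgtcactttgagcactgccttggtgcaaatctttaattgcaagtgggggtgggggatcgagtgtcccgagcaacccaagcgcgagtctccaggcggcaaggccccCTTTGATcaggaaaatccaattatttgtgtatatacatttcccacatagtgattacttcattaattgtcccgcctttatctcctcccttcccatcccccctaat
The windows of Sfrp2 and Wif1 hold none of the 3 motifs. Sp5 holds CTTTGAT starting 104 bases before the gene start and CTTTGTT on the other strand, printed as AACAAAG and starting 222 bases before it. Sp5, a zinc finger factor and a direct Wnt target, nevertheless read 1.3 and 1.9, below the filter on both arrays. RefSeq promoters were matched for 38 members, with 47 gene starts. Of these, 6 starts (12.8%) hold a Tcf/Lef motif, those of Dkk1, Fzd7, Sp5, Tcf7l2, Wnt11 and Wnt5b, against 8.06% of all 32851 promoters. CTTTGTT, which is also a Sox site, stands in 4 of 47 member promoters (8.51%) and in 5.03% of all promoters. These 4, of Dkk1, Fzd7, Sp5 and Tcf7l2, are among the 6 starts above. AACAATG stands in 1 of 47 member promoters (2.13%), that of Tcf7l2, and in 3.29% of all promoters. A match describes letters only, and these windows miss distant sites.

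Most Wnt ligands were below the filter on both arrays: of 19, 4 passed it. Of these, 3 had a ratio above 0 (2 after quantile normalization), against 47.7% of all genes (43.0% after quantile normalization). Wnt5a, which mostly signals without beta-catenin, gave 28.6 (wild type) and 42.7 (knockout), a log2 ratio of 0.51. Further pairs of intensities follow the same order. Its other passing probe set gave 22.1 and 30.0, a ratio of 0.37. Both were higher in the knockout, at levels where wide ratios are common: 13.5% of genes in the same band of level had a ratio at least as high, where a band is 1 of 4 equal groups of genes by mean level. Wnt7b, which macrophages are known to supply to the fetal eye vessels, read 45.3 and 52.4 (0.19). Wnt5b, a relative of Wnt5a, read 22.4 and 24.9 (0.13), and its other probe set, below the filter, 18.3 and 16.6. Wnt7a, a beta-catenin ligand of neural tissue, read 21.5 and 19.9 (-0.09). The ligands below the filter were Wnt1, Wnt2, Wnt2b, Wnt3, Wnt3a, Wnt4, Wnt6, Wnt8a, Wnt8b, Wnt9a, Wnt9b, Wnt10a, Wnt10b, Wnt11 and Wnt16, with intensities from 0.4 to 16.2. Among them, Wnt2b, known from the ciliary margin and pigment epithelium, read 5.0 and 2.2 on its only probe set. The 2 probe sets of Wnt4 read 8.6 and 6.2, and 2.0 and 9.5.

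Frizzled receptors and the Lrp co-receptors were well represented, with 11 of 12 past the filter, and the differences were mostly small. Of the 11, 8 had a ratio above 0 (7 after quantile normalization), and the median was 0.18. Among all genes, 47.7% were above 0 (43.0% after quantile normalization). Fzd9, among the 8, passed only through the knockout and so had to be above 0. Fzd6, a Frizzled known for planar polarity in skin, differed most. Its main probe set read 64.5 and 101.8, a log2 ratio of 0.62, or 1.54-fold. Its second probe set read 9.5 and 30.3 (1.28, at least 1.63-fold against the filter), and its last was below the filter at 4.0 and 7.7. The second thus passed only through the knockout. In its band of level, 2.15% had a ratio at least as high as that of the main probe set. With the median over its passing probe sets the ratio of Fzd6 was 0.95, and it fell short of 1.5-fold after quantile normalization, after loess and with the larger pseudocount, where the lowest value was 0.53.

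The receptors of the retinal vessel pathway, in which Fzd4 and Lrp5 receive the ligand norrin, read higher on the knockout array. Fzd4 read 34.5 and 45.4 (0.35), and a second probe set 16.4 and 23.9 (0.43, at least 1.28-fold). That second probe set passed only through the knockout and so had to read higher there. Lrp5 read 26.5 and 36.5 (0.40). Norrin itself, Ndp, read 36.8 and 38.4 (0.05), and the co-activator Tspan12 read 68.3 and 79.9 (0.21). These ratios were within what dim genes often showed: 22.1% and 19.4% of genes in the same band were at least as high as Fzd4 and Lrp5. Of 8 endothelial markers, 6 (wild type) and 5 (knockout) were below the filter.

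Fzd5, a receptor that eye development requires, read 839.4 and 958.5 (0.19), with 0.03 for its other probe set at 73.5 and 75.1. Fzd3, known for axon guidance, read 652.0 and 704.0 (0.11). The other passing probe sets of Fzd3 gave ratios of -0.55, 0.29 and -0.28, and those below the filter read 18.3 and 16.9, and 8.8 and 3.1. Fzd8, a close relative of Fzd5, went the other way at 38.6 and 29.2 (-0.35), and its other probe set was below the filter at 16.8 and 11.2. Fzd2 gave 236.5 and 217.1 (-0.12), -0.01 and 0.26 over 3 probe sets. Fzd7 read 87.0 and 99.4 (0.18). Fzd1 read 93.5 and 98.0 (0.06), a sign that turned after quantile normalization (-0.003). A dimmer Fzd1 probe set at 13.7 and 23.6 (0.61, at least 1.27-fold) passed only through the knockout. Fzd9, at 16.5 and 21.6 (0.31, at least 1.16-fold), passed the filter only through the knockout. The co-receptor Lrp6 read 200.1 and 190.0 (-0.07), and 22.6 and 32.3 (0.43) on a second probe set. Fzd10 stayed below the filter at 13.5 and 14.9.

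The R-spondin branch, which raises Frizzled at the cell surface, split. Lgr5, an R-spondin receptor that is itself a Wnt target, read 16.9 and 48.7, a log2 ratio of 1.29, at least 2.62-fold against the filter. It passed the filter only through the knockout, and its other probe set, below the filter, went from 6.9 to 4.3. In its band of level 1.42% of genes had a ratio at least as high. Lgr4, the related receptor, read 1051.3 and 938.5, a ratio of -0.16, and its other probe set was near background at 0.5 and 3.5. In the band of Lgr4 25.6% of genes had a ratio at least as low. Znrf3, the transmembrane ubiquitin ligase that removes Frizzled and is blocked by R-spondins, read 102.4 and 149.7, a ratio of 0.53, or 1.44-fold. In its band 3.81% of genes were at least as high, and its second probe set was below the filter at 13.2 and 1.8. Rspo2, the only R-spondin past the filter, was lower, at 120.6 and 85.9 (-0.47). In its band 3.39% of genes had a ratio at least as low. The related ligase Rnf43 and the ligands Rspo1, Rspo3 and Rspo4 were below the filter, between 0.5 and 3.8. The branch thus had its receptor Lgr5 and the ligase Znrf3 higher, and its ligand Rspo2 lower, on the knockout array. Of these, Lgr5 had to read higher by the filter. The receptor Lgr4 was lower by a ratio common in its band.

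All 5 secreted inhibitors past the filter had a ratio above 0 as deposited, against 47.7% of all genes, with a median of 0.46. After quantile normalization, where Sfrp4 turned, it was 4 of 5, against 43.0% of all genes. Sfrp2, which binds Wnt ligands through a Frizzled-like domain, read 327.8 and 564.9 on its only probe set, a log2 ratio of 0.78, or 1.71-fold. At that level wide ratios were rare: 0.208% of the 2888 genes in the highest band were at least as high. Sfrp1, its close relative, read 128.0 and 178.4 (0.46), and 2.63% of genes in its band were at least as high. All 5 Sfrp1 probe sets passed the filter and all were higher. The other 4 read 78.3 and 149.5 (0.89), 58.0 and 78.7 (0.41), 46.7 and 54.6 (0.21), and 31.1 and 65.1 (0.96). The sign of Sfrp1 thus held across its probe sets, while its size ranged from 0.21 to 0.96. Wif1, which binds Wnt ligands outside the cell, read 14.5 and 27.3 (0.73, at least 1.47-fold). It too passed only through the knockout, and 6.75% of genes in its band were at least as high. Notum, the enzyme that strips the lipid from Wnt, read 38.2 and 45.9 (0.24), and Sfrp4 read 19.1 and 21.1 (0.12), a sign that turned after quantile normalization (-0.02). With values below the filter set to the filter, the median of the 5 was 0.45. Below the filter were Dkk1, an inhibitor of the Lrp co-receptors, at 8.7 and 17.3 on its main probe set, its relatives Dkk2 at 3.2 and 9.0 and Dkk4 at 5.1 and 3.1, and Sfrp5 at 11.1 and 12.3. Summed markers of mesenchyme, macrophages, lens, pigment epithelium and ciliary margin were higher on the same array, as given above. Of the single markers past the filter, 2 lens, 1 pigment epithelium and 2 ciliary margin markers were lower. Their part in the inhibitor ratios was not tested.

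**Figure D2:**
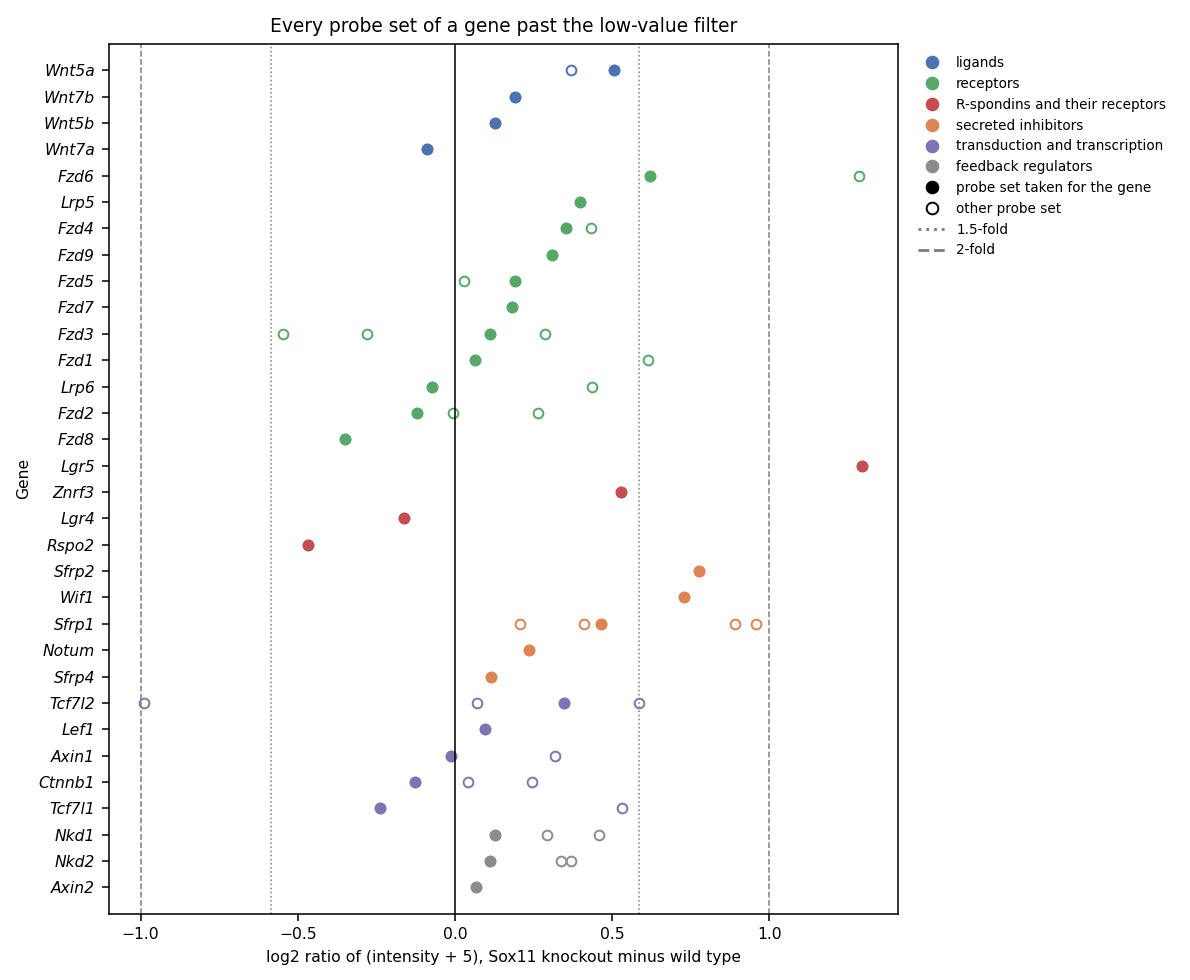
Log2 ratio of (intensity + 5), knockout minus wild type, for every passing probe set of each member, filled for the probe set taken for the gene, with dotted lines at 1.5-fold and dashed lines at 2-fold. The 5 Sfrp1 probe sets lie between 0.21 and 0.96, while Tcf7l2 has 1 probe set at -0.99 and 3 above 0.

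Of the genes that carry the signal inside the cell, 5 passed the filter, 2 of them with a ratio above 0, against 47.7% of all genes. Ctnnb1, which encodes beta-catenin, read 3683.7 and 3374.1 (-0.13), 1200.7 and 1235.9 (0.04), and 574.0 and 681.2 (0.25) on its 3 probe sets. Axin1, the scaffold of the complex that degrades it, read 154.2 and 152.7 (-0.01), and 37.2 and 47.6 (0.32). Both genes thus had probe sets on either side of 0. Tcf7l1, mostly a repressor of Wnt targets, read 110.4 and 92.7 (-0.24), and 51.9 and 77.3 (0.53). Lef1, an activating partner of beta-catenin, read 27.6 and 29.8 (0.09), a ratio that was -0.014 after loess and -0.04 after quantile normalization. Tcf7l2, which can act either way, read 83.9 and 108.0 (0.35). Its other probe sets gave 67.0 and 102.9 (0.58), 21.5 and 22.8 (0.07), and 18.6 and 6.9 (-0.99). Probe sets of Tcf7l2 can report different transcripts, so its direction is uncertain. The median of the 5 genes was -0.01, and 0.15 with the median over the probe sets of each gene.

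Feedback regulators that report pathway activity differed little on their main probe sets, with a median of 0.11. The median was 0.29 with the median over the probe sets of each gene, and -0.01 after quantile normalization. Axin2, the most used readout of beta-catenin signalling, read 65.6 and 68.9, a log2 ratio of 0.07 that turned to -0.014 after quantile normalization and -0.0096 after loess. Nkd1, an inhibitor that binds Dishevelled, read 101.0 and 110.8 (0.13), and its other passing probe sets gave 0.29 and 0.46. Its relative Nkd2 read 30.0 and 32.8 (0.11), with 0.37 and 0.34 on its dimmer probe sets, and its sign turned after quantile normalization (-0.02). All passing probe sets of Nkd1 and Nkd2 were above 0 as deposited. The dimmer passing ones of Nkd2, at 18.3 and 25.1, and at 15.6 and 21.0, passed only through the knockout. They thus had to be above 0. Between 42.0% and 44.8% of genes in their bands had a ratio at least as high as Axin2 and Nkd2, and 31.9% one as high as Nkd1. The targets Lgr5 and Znrf3 had ratios of 1.29 and 0.53. Lgr5 passed only through the knockout and so had to read higher, by at least 2.62-fold against the filter. The ratios of Axin2, Nkd1, Nkd2, Znrf3 and Lgr5 thus differed in size between these arrays. Whether these sizes differ beyond the spread between animals cannot be tested here.

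Across the 58 passing probe sets of all members, 45 were above 0, against 54.1% of all passing probe sets with 1 symbol. Of the 58, 8 passed only through the knockout and so had to be above 0, and 1 only through the wild type. Of the 49 at or above the filter on both arrays, 37 were above 0 (75.5%), against 53.4% of all such probe sets. At least 1.5-fold higher were 8, against 5.01% of all, and they belonged to Fzd1, Fzd6, Lgr5, Sfrp1, Sfrp2 and Wif1. Of these, 4 were at or above the filter on both arrays, and the others, of Fzd1, Fzd6, Lgr5 and Wif1, passed only through the knockout, with bounds of 1.27-fold for Fzd1 and 1.47-fold for Wif1 that fall short of 1.5. At least 1.5-fold lower was 1, the dim probe set of Tcf7l2, against 2.09% of all, and its wild-type value lies at the filter, which leaves no fold as a bound. Of 15 members with several passing probe sets, 8 had all of them above 0, none had all below, and 7 had them on both sides. Among the 8, Fzd1, Fzd4, Fzd6 and Nkd2 each held at least 1 probe set that passed only through the knockout. Such a probe set had to be above 0. The same count was not made over all genes, so no direction is read from it. The pooled SD between probe sets of a gene was 0.36 for members and 0.26 for all genes.

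**Figure D3:**
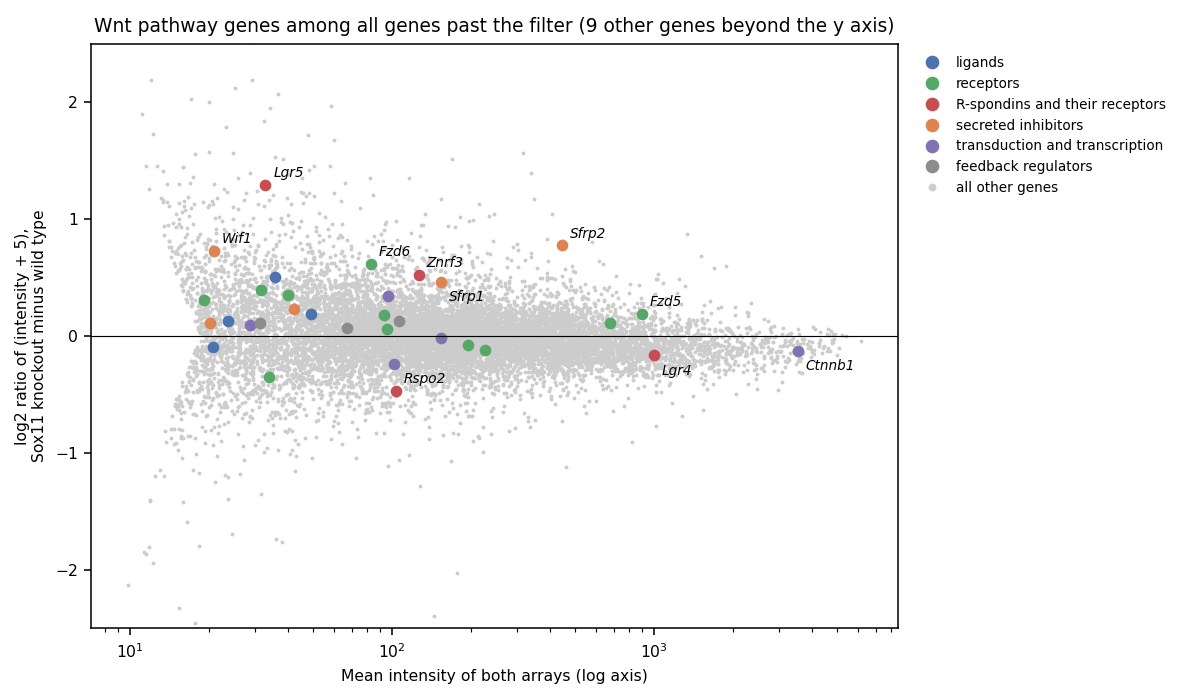
Log2 ratio of (intensity + 5), knockout minus wild type, against the mean intensity of both arrays on a log axis, with the 32 members coloured by role over all other genes past the filter in grey (9 of these lie beyond the y axis). Sfrp2 (0.78) stands outside the narrow cloud at its level, while Lgr5 (1.29) and Wif1 (0.73) lie where the cloud is wide.

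The rest of the pathway is given by list. Of 70 further pathway genes, 61 passed the filter, 33 of them above 0 (54.1%, against 47.7% of all genes) and 28 below, with a median of 0.04. Of these, 3 passed only through the knockout (Wls, Sostdc1 and Frzb). At least 1.5-fold higher were 3 (Cd44, Bambi and Sostdc1, the last with a bound below 1.5), against 3.81% of all genes, and none was 1.5-fold lower, against 2.17%. In ligand release, Wls, the carrier of Wnt to the surface, read 12.5 and 21.0 (0.57, at least 1.13-fold), and Porcn, the enzyme that attaches the lipid, read 83.2 and 66.4 (-0.30). Of 17 other receptors and extracellular modulators, 11 were above 0. The inhibitor Sostdc1 had 0.69 (at least 1.15-fold), the Sfrp relative Frzb 0.33 (at least 1.05-fold), and Apcdd1 and Tpbg 0.32 each. Dkk3, a Dickkopf relative outside the symbols used here, read 2105.7 and 2571.2 (0.29), with both probe sets higher.

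Cytoplasmic transducers had 7 of 18 above 0 and a median of -0.02, against 47.7% and -0.01 over all genes past the filter. The same share over all genes stands beside the counts of nuclear cofactors and of the planar polarity arm below. Dvl1, a Dishevelled protein that relays the signal from Frizzled, was lowest at 474.9 and 332.5 (-0.51), with a second probe set at -0.32. Cby1, a beta-catenin antagonist, had -0.35, and the casein kinase genes Csnk1d and Csnk1e had -0.33 and -0.29, although 4 of 5 Csnk1d probe sets were above 0. Nuclear cofactors had 5 of 9 above 0, with the beta-catenin cofactors Pygo1 at -0.37, Bcl9 at 0.37 and Bcl9l at -0.24 and the co-repressor Tle3 at -0.18. In the planar polarity arm, 5 of 7 were above 0, among them Vangl1 at 0.49 and Celsr2 at 0.46, each with both probe sets higher, and Prickle2 at 0.11. Below 0 were Prickle1 at -0.25 and Daam1 at -0.05.

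Other reported targets of beta-catenin were mixed. Cd44, a matrix receptor also found on mesenchymal and immune cells, read 24.5 and 75.9 (1.46), with both passing probe sets higher. Bambi, a decoy receptor of the TGF-beta family, read 110.5 and 216.9 (0.94). Myc had 0.36 and Sox9 had -0.11, and Id2, a repressor of basic helix-loop-helix factors, had -0.06 with passing probe sets from -1.09 to 0.28. In all, 4 of the 8 targets were above 0, against 47.7% of all genes, with a median of -0.002. The cell cycle gene Ccnd1 read 4055.0 and 3925.1 (-0.05).

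**Figure D4:**
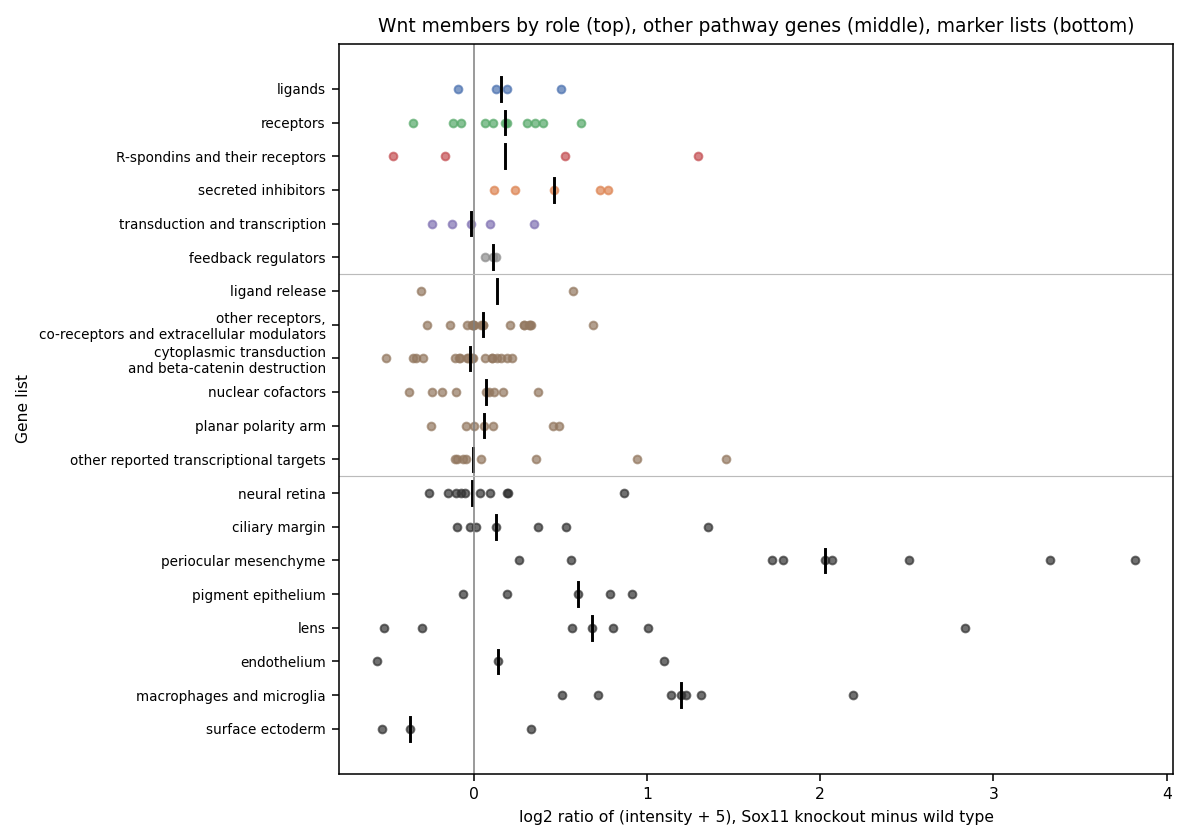
Log2 ratio of (intensity + 5), knockout minus wild type, of each gene past the filter in the member roles, in the other pathway lists and in the marker lists, with a black bar at the median. The median of the secreted inhibitors is 0.46, and those of the other pathway lists lie between -0.02 and 0.13. The highest of these, 0.13, is of 2 ligand release genes and is -0.08 with values below the filter set to it. Medians of mesenchyme and macrophage markers are 2.03 and 1.20 (1.30 and 1.20 with values below the filter set to it).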

How the data were processed

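RNA of 1 retina per genotype was column-purified, amplified from oligo-dT and hybridised as biotin-labelled cRNA, per the labels' protocols. The file holds 1 linear intensity per probe set and array, as deposited by the authors. Their scaling was read from the values: both arrays had a mean of 100.0 once the outer 2% at each end were dropped. The software was not given in the sources used here, and detection calls were not used.

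The 64 control probe sets were left out, which left 45037. Names came from GEO's platform annotation, which gave 34945 probe sets a single symbol and 932 several. The other 9160 stay unnamed. Of the first group, 34741 matched the GRCm38.p6 gene table by Entrez number and no symbol changed. A gene took the probe set with the highest mean of both arrays. The pseudocount of 5 is the pooled 25th percentile and the filter of 18.6 the pooled median. A lower bound of a fold is the brighter value over 18.6, used if the dimmer value was under 18.6. A band of level is 1 of 4 equal groups of passing genes by mean log2 value, and the share of its genes at least as far out describes these 2 arrays only.

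Differences of at least 2-fold or 1.5-fold on the log2(intensity + 5) scale were counted, with no test. Members, gene lists and the naming rule were chosen with earlier results of these data known. All passing members are named, with every probe set where signs differ and 1 is past 1.5-fold, and up to 4 genes per pathway list by absolute ratio, with other genes named for their role. Marker lists are given by counts. Python 3.11.15, pandas 2.3.3, numpy 2.4.6 and statsmodels 0.14.6 were used, and the counting was tested on simulated data. Alternatives were centring, quantile normalization, loess (span 0.3), other pseudocounts and filters (none, or 109.4, the pooled 75th percentile), no probe sets with an s, x or a suffix, the median over probe sets and, added after seeing the data, values below the filter set to it.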

Additional observations from a re-analysis of the deposited data

How the results depend on the processing

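The 10 alternatives gave 50 values for the counts of members past 1.5-fold and 2-fold and for the median over members, and 42 of them kept within 1.5 times of the reported count or within the tolerance for the median given below. Within that range, 3 members were 1.5-fold higher after quantile normalization and after loess (not Fzd6), without probe sets of an s, x or a suffix and with values set to the filter (not Wif1), and 6 without a filter (Dkk1 and Dkk2 added). With the pseudocount at the pooled median, 2 members were at least 1.5-fold higher (Lgr5 and Sfrp2) and 0 were 2-fold higher. With the filter at 109.4, 13 members were left, 1 was 1.5-fold higher (Sfrp2), 0 were 2-fold higher, and the median over members turned to -0.014, against -0.03 over all genes. Fewer genes are tested by construction there, since Lgr5, Wif1 and Fzd6 do not pass. Without a filter, 1 member, Wnt8b, was 1.5-fold lower. The median over members was 0.075 after quantile normalization and 0.19 with the median over probe sets, against 0.13 as reported; the cause was not tested. Of the 32 members, 26 kept their sign under all 3 scalings and 21 under all alternatives that gave a value. Of the members past 1.5-fold, Sfrp2 ranged from 0.75 to 0.80, Lgr5 from 0.92 to 1.53, Wif1 from 0.45 to 0.91 and Fzd6 from 0.53 to 0.95. A value counted as moved where it shifted by more than the SD between probe sets of a gene, 0.26, divided by the square root of the number of members for the median. No paired analysis was possible because each genotype has 1 array. Signal over background limits the 25 members below the filter and the 3 that passed only through the knockout, Lgr5, Wif1 and Fzd9.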
